A study of Mus musculus with 8 samples.

Results

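The CC chemokines described here are 10 mouse genes, Ccl2, Ccl3, Ccl4, Ccl5, Ccl6, Ccl7, Ccl8, Ccl9, Ccl12 and Ccl24, taken by name, and all 10 were measured among the 18193 genes on the arrays. Their RNA was measured with Affymetrix mouse expression arrays in GFP-positive cells that had been sorted from kidneys of FSP1-eGFP transgenic mice. The mice had a C57BL/6 background, were 6 months old and were all labelled male. In 5 ischemic kidneys, blood flow of the left kidney had been stopped by clamping artery and vein for 45 minutes and then restored, and cells were sorted on day 3. Buprenorphine was given for pain after surgery. The 3 control kidneys were non-ischemic, are named normal in one label and sham in another, and have no day of collection in the labels. The reporter is driven by the promoter of FSP1 (S100a4), a gene often used to mark fibroblasts and also active in leukocytes, so the sort selects cells by promoter activity and not by lineage. The comparison asks how chemokine RNA in such cells differs early after ischemic injury.

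Chemokines are small secreted proteins that guide leukocytes through G protein-coupled receptors, and the CC family is named for a pair of adjacent cysteines near the start of the mature protein. CCL2, CCL7 and CCL12 act on CCR2, the receptor that draws inflammatory monocytes out of the blood, and injured kidney is a well known site of this signal. CCL3, CCL4 and CCL5 attract monocytes and T cells, and CCL3 and CCL5 act on CCR1. CCL6 and CCL9 are rodent chemokines that act on CCR1, CCL24 is an eotaxin that acts on CCR3, and mouse CCL8 is known as a ligand of CCR8.

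In the RefSeq gene order 9 of the members lie on chromosome 11, in a pair of clusters, and Ccl24 lies on chromosome 5. The first cluster runs Ccl2, Ccl7, Ccl12 and Ccl8 and holds the monocyte chemoattractants, with 1 other protein-coding gene (Ccl11) between Ccl7 and Ccl12. The second cluster runs Ccl5, Ccl9, Ccl6, Ccl3 and Ccl4 with no other protein-coding gene between neighbours, and 26 protein-coding genes separate it from the first. Of the 10 members 5 had a promoter in the RefSeq table used here (build GRCm38.p6). The 250 bases before the start site are shown for the 3 genes whose ischemic and normal arrays did not overlap in level, 5′ to 3′ on the strand of the gene, with motif matches in capitals. They lie at chr11:82114935-82115184 (plus strand) for Ccl8, chr11:82101595-82101844 (plus strand) for Ccl12 and chr11:83578637-83578886 (minus strand) for Ccl9.
Ccl8: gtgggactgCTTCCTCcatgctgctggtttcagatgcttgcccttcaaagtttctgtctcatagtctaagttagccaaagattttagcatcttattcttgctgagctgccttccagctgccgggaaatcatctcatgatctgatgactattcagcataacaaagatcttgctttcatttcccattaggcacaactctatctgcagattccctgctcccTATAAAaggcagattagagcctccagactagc
Ccl12: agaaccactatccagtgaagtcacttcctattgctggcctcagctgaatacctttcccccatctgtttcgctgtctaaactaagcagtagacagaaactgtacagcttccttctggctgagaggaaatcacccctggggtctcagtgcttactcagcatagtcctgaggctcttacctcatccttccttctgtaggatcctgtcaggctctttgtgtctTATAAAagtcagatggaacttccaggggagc
Ccl9: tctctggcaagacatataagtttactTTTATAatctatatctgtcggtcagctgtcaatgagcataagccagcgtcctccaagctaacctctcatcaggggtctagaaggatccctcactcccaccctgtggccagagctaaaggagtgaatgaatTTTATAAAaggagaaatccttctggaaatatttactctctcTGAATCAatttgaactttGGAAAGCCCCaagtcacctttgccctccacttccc

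The motifs were searched on both strands. The pattern for NF-kappaB, the main switch of inflammatory genes, was GGGNNNTTCC. For AP-1, another factor induced by stress and cytokines, it was TGANTCA. For the STAT factors activated by interferons and other cytokines it was TTCNNNGAA. For PU.1, a factor of myeloid cells, it was GAGGAAG. For the TATA box, which positions the start of transcription, it was TATAAA. Such a box lay at bases -32 to -27 from the start site of Ccl8 and at -31 to -26 of Ccl12, while 12.4% of 32851 RefSeq promoter stretches of this length held one anywhere. The Ccl8 stretch also held a PU.1 match at -241 to -235 (10.6% of all stretches held one). The Ccl9 stretch held a kappaB match at -35 to -26 (4.65% of all stretches) and an AP-1 match at -53 to -47 (6.75% of all stretches). It also held 3 TATA matches, at -224 to -219, -94 to -89 and -92 to -87, the last 2 overlapping on opposite strands. The STAT pattern was in none of the 3 stretches (7.02% of all stretches held it). The stretches of Ccl3 and Ccl6, the other members in the table, held none of the 5 patterns. A match describes letters only.

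Before the results, some arrays stood apart. Ischemic array 1 correlated less with the remaining arrays across genes (median 0.752) than the other 7 did (medians of 0.850 to 0.913). Xist, an RNA made from the inactive X chromosome of female cells, was at 9.39 to 11.19 in ischemic arrays 1 and 2 and normal array 1 and at 4.49 to 4.96 in the other 5, so 3 arrays went against the label male. S100a4 was at 11.30 to 12.23 on all 8 arrays. All 15 measured macrophage and monocyte markers, and 8 of 12 fibroblast markers, had a mean no lower than the gene-wide median. So did all 7 endothelial and all 10 proximal tubule markers, so this level does not single out a cell type. The difference between 3' and 5' Gapdh control probe sets, a sign of RNA integrity, was 1.94 to 2.61 in ischemic and 2.22 to 2.68 in normal arrays. For the beta-actin control probe sets it was -0.22 to 0.65 in ischemic and -0.21 to -0.0069 in normal arrays. Ischemic array 3 had the highest beta-actin value, and ischemic arrays 2 to 5 lay above all normal arrays. Levels and differences here are on the log2(intensity + 16) scale after quantile normalization, on which an intensity of 1 is 4.09 and the change of dim genes is understated. Levels of different probe sets are not comparable with each other.

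All 4 members of the first cluster were 3.71- to 4.09-fold higher in cells from ischemic kidneys on this scale, those of the second cluster and Ccl24 differed less, and no member passed the test over all genes. The difference, ischemic minus normal, was 2.03 for Ccl2, 1.92 for Ccl7, 1.98 for Ccl12 and 1.89 for Ccl8. It was 0.95 for Ccl6 and 0.91 for Ccl9. It was 0.46 for Ccl3, 0.17 for Ccl4, 0.14 for Ccl5 and 0.15 for Ccl24. All 10 differences were positive with quantile normalization, 9 with arrays centred on their median (Ccl4 negative), and 8 after centring on ribosomal protein genes or with values as deposited (Ccl4 and Ccl5 negative). With quantile normalization 54.8% of all genes had a positive difference, the share to hold beside each such count given below.

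By limma with Benjamini-Hochberg adjustment 0 of 10 members and 0 of 18193 genes (0%) passed an adjusted p of 0.05. At an unadjusted p under 0.05, limma gave 5 of 10 members as higher (Ccl2, Ccl7, Ccl8, Ccl9 and Ccl12) and 2.11% of all genes as higher, with 383 genes higher and 912 lower. That split of all genes was 235 against 1011 with arrays centred on their median, 217 against 1124 without normalization and 128 against 1608 after ribosomal centring. Every ischemic array lay above every normal array for 3 of 10 members (Ccl8, Ccl9 and Ccl12), against 1.89% of all genes. A difference of at least 1 was seen in 4 of 10 members, against 2.02% of all genes. The median difference of the members was 0.93, and that of all genes 0.04. Because the members were put together with results of these arrays known, these shares describe them and are no test. The p-values measure the spread between these kidneys, and the labels do not say whether the 3 normal kidneys came from separate mice.

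**Figure D1:**
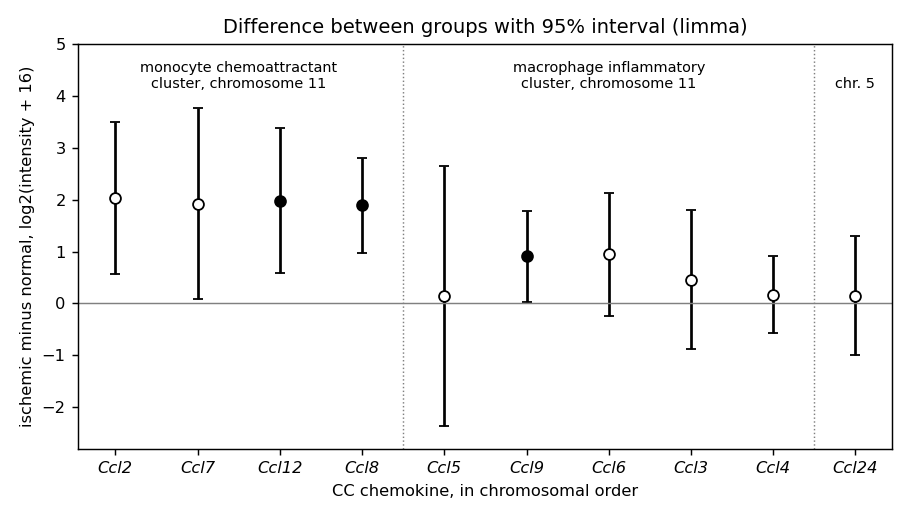
Ischemic minus normal difference of each CC chemokine on the log2(intensity + 16) scale, with the 95% interval from limma, in chromosomal order within chromosome 11 and then Ccl24 on chromosome 5. Filled points are genes whose groups did not overlap (Ccl12, Ccl8 and Ccl9). The 4 genes of the first cluster lie between 1.89 and 2.03, and the intervals of the second cluster other than that of Ccl9 include 0.

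Ccl8 had the lowest p of the members. Its ischemic arrays 1 to 5 were at 5.14, 7.16, 6.44, 6.34 and 6.13, and its normal arrays 1 to 3 at 4.34, 4.32 and 4.39. All 5 ischemic arrays were above all 3 normal ones, which lay close together and near the lowest level the scale can show. The means were 6.24 ± 0.73 (SD, n = 5) and 4.35 ± 0.034 (SD, n = 3), and the difference was 1.89 ± 0.40 (SE). The 95% interval of the difference was 0.97 to 2.81, or 1.97-fold to 7.01-fold (limma adjusted p = 0.171, rank 137 of 18193 genes by p). The two-sided exact permutation test gave p = 0.0179, the smallest that the 56 arrangements of 5 and 3 arrays allow, unadjusted. The size depended on the floor of the scale, with 3.44 at a pseudocount of 1 and 0.89 at a pseudocount of 64. As deposited, the intensity of Ccl8 was 3.58 to 4.97 in the normal arrays and 25.2 to 114 in the ischemic arrays.

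Ccl12, which in mice acts with Ccl2 as a monocyte attractant, was at 6.59, 6.76, 9.39, 7.59 and 7.18 in ischemic arrays 1 to 5 and at 5.90, 5.67 and 5.01 in normal arrays 1 to 3. Ischemic array 3 was far above the rest, and the groups did not overlap. The difference was 1.98 ± 0.61 (SE), with a 95% interval of 0.58 to 3.37 (limma adjusted p = 0.392). It was 1.50 without ischemic array 3 and 1.32 with a pseudocount of 64, its lowest value over the settings tried.

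Ccl2, the monocyte chemoattractant protein after which the cluster is known, was at 7.09, 8.32, 9.84, 8.73 and 8.71 in ischemic arrays 1 to 5. Its normal arrays 1 to 3 were at 5.33, 6.87 and 7.32. The groups overlapped only through ischemic array 1, which lay below normal array 3. The difference was 2.03 ± 0.64 (SE), with a 95% interval of 0.57 to 3.49 (limma adjusted p = 0.411). Without ischemic array 1 the groups no longer overlapped and the difference was 2.43, and without normal array 1 it was 1.43.

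Ccl7, another attractant of monocytes, was at 4.86, 5.41, 8.50, 7.31 and 6.95 in ischemic arrays 1 to 5 and at 4.18, 4.29 and 5.58 in normal arrays 1 to 3. Ischemic arrays 3, 4 and 5 were above every normal array, and ischemic arrays 1 and 2 lay between normal arrays 2 and 3. The difference was 1.92 ± 0.81 (SE), with a 95% interval of 0.081 to 3.77 (limma adjusted p = 0.678). It ranged from 1.08 with a pseudocount of 64 to 3.24 with a pseudocount of 1.

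**Figure D2:**
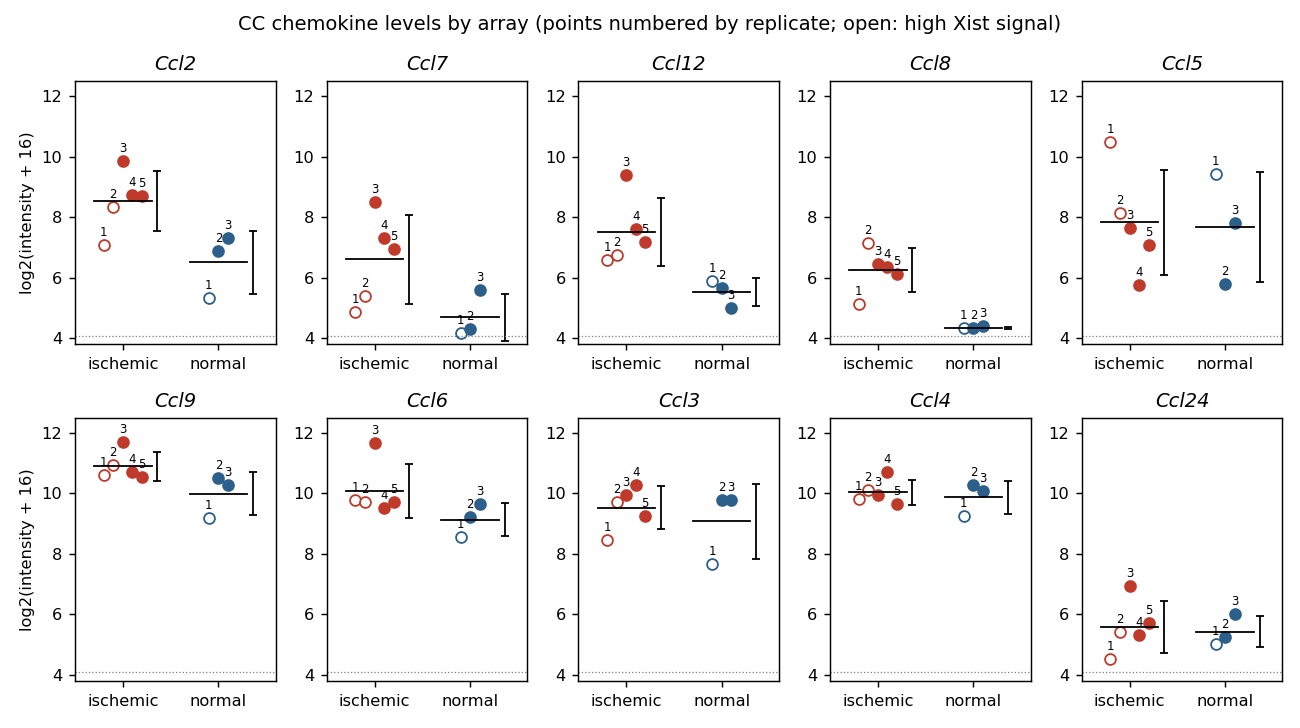
Level of each CC chemokine on each array, as log2(intensity + 16), with the 5 ischemic arrays in red and the 3 normal arrays in blue, numbered by replicate. Lines are group means, bars are ± 1 SD, open points are the 3 arrays with high Xist signal, and the dotted line is the level of an intensity of 1. Ccl8 in normal arrays lies just above that line, and Ccl5 spans 5.77 to 10.50 in the ischemic arrays.

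In the second cluster, Ccl9 and Ccl6 differed by about the same amount. Ccl9, a CCR1 ligand of myeloid cells, was at 10.60, 10.94, 11.69, 10.70 and 10.54 in ischemic arrays 1 to 5. It was at 9.18, 10.51 and 10.27 in normal arrays 1 to 3. The groups did not overlap, but ischemic array 5 lay only just above normal array 2, and the groups overlapped with arrays centred on their median or on ribosomal genes and with values as deposited. The difference was 0.91 ± 0.38 (SE), with a 95% interval of 0.028 to 1.78 (limma adjusted p = 0.681), and it was 0.51 without normal array 1. The other probe set of Ccl9 gave 1.22, but its groups overlapped, with ischemic array 1 at 5.39 below normal array 3 at 5.76. With the most variable probe set, or the mean of both, Ccl9 no longer had groups apart.

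Ccl6, also a CCR1 ligand, was at 9.79, 9.72, 11.68, 9.53 and 9.70 in ischemic arrays 1 to 5 and at 8.56, 9.21 and 9.64 in normal arrays 1 to 3. Ischemic array 3 stood far above the other 4, and ischemic array 4 fell below normal array 3. The difference was 0.95 ± 0.52 (SE), with a 95% interval of -0.23 to 2.13 (limma adjusted p = 0.828), and it was 0.55 without ischemic array 3. The other probe set of Ccl6 gave 1.23.

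Ccl3 and Ccl4, the macrophage inflammatory proteins, overlapped between the groups. Ccl3 was at 8.46, 9.72, 9.95, 10.28 and 9.26 in ischemic arrays 1 to 5 and at 7.65, 9.79 and 9.78 in normal arrays 1 to 3. Ischemic array 1 and normal array 1 were the lowest of their groups. The difference was 0.46 ± 0.59 (SE), with a 95% interval of -0.89 to 1.80 (limma adjusted p = 0.954), and without normal array 1 it turned to -0.25. Ccl4 was at 9.80, 10.10, 9.96, 10.69 and 9.63 in ischemic and at 9.26, 10.28 and 10.06 in normal arrays. Its difference of 0.17 ± 0.33 (SE) had a 95% interval of -0.58 to 0.92, or 0.670-fold to 1.89-fold (limma adjusted p = 0.967). That interval leaves room for a fall or a rise of less than 2-fold.

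Ccl5, made by T cells and NK cells among others, spread more within each group than any other member. It was at 10.50, 8.13, 7.65, 5.77 and 7.08 in ischemic arrays 1 to 5 and at 9.43, 5.80 and 7.82 in normal arrays 1 to 3. Both groups held arrays near 5.8 and arrays above 9. The difference was 0.14 ± 1.10 (SE), with a 95% interval of -2.36 to 2.64 (limma adjusted p = 0.990), so these arrays set no useful limit on it. It ran from -0.78 without normal array 2 to 1.07 with the replicate number as a block, which compares same-numbered arrays only.

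Ccl24, an attractant of eosinophils, was at 4.54, 5.42, 6.92, 5.32 and 5.71 in ischemic arrays 1 to 5 and at 5.03, 5.26 and 6.00 in normal arrays 1 to 3. Its highest and lowest values were both in ischemic arrays. The difference was 0.15 ± 0.50 (SE), with a 95% interval of -0.99 to 1.29 (limma adjusted p = 0.973), and without ischemic array 3 it turned to -0.18.

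The members shared an order of arrays in part. Ischemic array 3 had the highest level of 6 of the 10 members (Ccl2, Ccl6, Ccl7, Ccl9, Ccl12 and Ccl24), and normal array 1 the lowest level of 6 (Ccl2, Ccl3, Ccl4, Ccl6, Ccl7 and Ccl9). The profiles over the 8 arrays, each centred on its own mean, were compared by their root mean square difference. Among the 45 pairs of members the smallest value was 0.39, between Ccl6 and Ccl9, followed by 0.52 between Ccl3 and Ccl4 and 0.54 between Ccl6 and Ccl24, which lie on different chromosomes. Pairs that follow each other within a cluster ranked from first to 38th. Besides Ccl6 with Ccl9 and Ccl3 with Ccl4, they were Ccl2 with Ccl7 at 0.59 (rank 6), Ccl7 with Ccl12 at 0.77 (rank 11), Ccl6 with Ccl3 at 0.84 (rank 17), Ccl12 with Ccl8 at 0.88 (rank 19) and Ccl5 with Ccl9 at 1.83 (rank 38). Ccl8 with Ccl5, which follow each other across the gap between the clusters, were at 2.00 (rank 41). The 9 largest values were those of Ccl5 with each of the other members, up to 2.47 with Ccl7.

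Over all genes with a mean at or above the median, the profile most like that of Ccl2 was Cfp (properdin of the complement system), at a root mean square difference of 0.23, followed by Cenpe at 0.39 and Aurka at 0.47. For Ccl8 they were Knl1 at 0.30, Nif3l1 at 0.40 and Ube2c at 0.40. For Ccl5 they were Cd4, the T helper cell coreceptor, at 0.55, Tcf20 at 0.60 and Mrm3 at 0.63. For Ccl24 they were Spidr at 0.15, Havcr2 at 0.19 and Wdr74 at 0.22. A flat profile gives small values with many genes, and the spread of the member itself over the 8 arrays was 1.31 for Ccl2, 1.05 for Ccl8, 1.53 for Ccl5 and 0.67 for Ccl24.

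Marker levels moved with some members. The summed intensity of the macrophage and monocyte markers was 18166 to 30417 in ischemic and 12075 to 16474 in normal arrays, highest in ischemic array 3 and lowest in normal array 1. The fibroblast sum was also highest in ischemic array 3 (9284) and lowest in normal array 1 (3279), and the neutrophil sum was also highest in ischemic array 3 (1230). S100a4, whose promoter drove the sort, had the highest level of the fibroblast list on every array, so that sum is in large part the sort gene. All 15 macrophage and monocyte markers had positive differences, with a median of 0.72. None of the 15 passed limma. Mrc1, the mannose receptor of macrophages, differed by 2.08, and Cx3cr1, the fractalkine receptor, by 1.77, while Csf1r, the receptor of the macrophage growth factor, differed by 0.63 and C1qa by 0.027. In bulk samples, more cells of a type and more RNA per cell cannot be told apart. The summed T and NK cell markers were highest in ischemic array 1 (2208), normal array 1 (1581) and ischemic array 2 (1006), the same 3 arrays and the same order as the highest levels of Ccl5. The other 5 arrays lay between 384 and 599. The summed B cell markers were highest in the same 3 arrays, at 2480 in ischemic array 1, 785 in ischemic array 2 and 471 in normal array 1, with at most 147 in the others. Of the 10 measured T and NK cell markers 5 had positive differences and none passed limma. Nkg7 was below 5 on every array, and Cd3e, part of the T cell receptor complex, had means of 7.33 in ischemic and 7.16 in normal arrays. Those 3 arrays are also the ones with high Xist signal. The part of macrophage, fibroblast, neutrophil, T cell, B cell or Xist-linked differences in the chemokine levels was not tested.

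**Figure D3:**
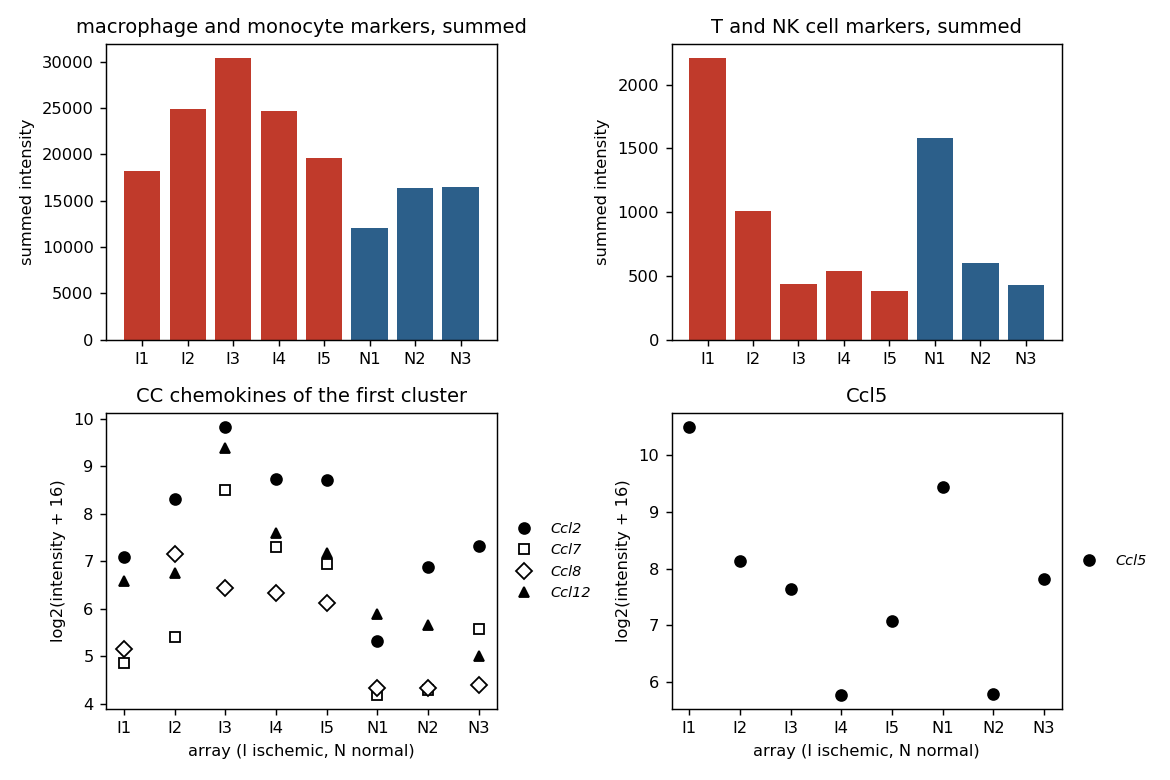
Summed intensity of macrophage and monocyte markers (15 genes) and of T and NK cell markers (10 genes) on each array in bars, above the log2(intensity + 16) levels of Ccl2, Ccl7, Ccl8 and Ccl12 and of Ccl5 on the same arrays. Ischemic arrays are I1 to I5 and normal arrays N1 to N3. Macrophage markers and Ccl2 were both highest on I3, and T and NK cell markers and Ccl5 both on I1 and N1.

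Other cell types gave lower or overlapping sums. Neutrophil markers (8 measured, 3 with positive differences, 1 with ischemic arrays all higher) summed to 150 to 1230 in ischemic and 276 to 1039 in normal arrays. Eosinophil and mast cell markers (8 measured, 4 positive, none with a mean reaching the gene-wide median) summed to 68.1 to 196 and 46.7 to 132. B cell markers (5 measured, 5 positive) summed to 83.6 to 2480 and 87.4 to 471, dendritic cell markers (6 measured, 3 positive, 1 with ischemic arrays all lower) to 883 to 1202 and 537 to 1499, and platelet markers (3 measured, 0 positive) to 10.3 to 198 and 56.7 to 392. Fibroblast markers (12 measured, S100a4 among them, 10 positive) summed to 4303 to 9284 and 3279 to 5807. Endothelial markers (7 measured, 0 positive) summed to 711 to 7041 and 1630 to 5580. Proximal tubule markers (10 measured, 0 positive, 8 with ischemic arrays all lower) summed to 2973 to 4831 and 11680 to 21876. Of all 18193 genes, the ischemic arrays were all higher for 343 and all lower for 622. The part of any of these cell types in the chemokine levels was not tested.

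In the 5 arrays with low Xist signal (3 ischemic and 2 normal), all members of the first cluster were higher in every ischemic array. The difference there was 2.00 for Ccl2, 2.74 for Ccl7, 2.81 for Ccl12 and 2.01 for Ccl8. With Ccl9, at 0.57, 5 of 10 members had groups that did not overlap, against 10.5% of all genes in the same 5 arrays. Ccl4 was at -0.07, Ccl3 at 0.04, Ccl5 at 0.03, Ccl6 at 0.86 and Ccl24 at 0.37. No member passed limma in these arrays (lowest adjusted p = 0.524, for Ccl8, whose adjusted p ranged from 0.0517 to 0.606 over all alternatives).

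**Figure D4:**
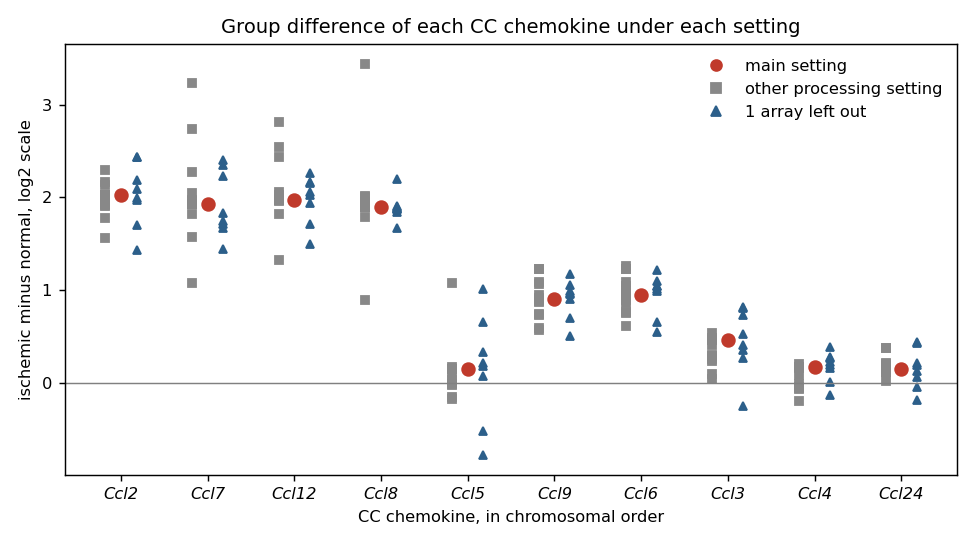
Ischemic minus normal difference of each CC chemokine on the log2 scale with the main setting (red circles), with each other processing setting (grey squares) and with each array left out in turn (blue triangles). The 4 genes of the first cluster and Ccl9 and Ccl6 stay above 0 in every setting tried, while Ccl5, Ccl3, Ccl4 and Ccl24 fall on both sides.

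The receptors of these ligands were measured on the same arrays. Ccr2, the monocyte receptor for CCL2, CCL7 and CCL12, was at 9.99, 10.29, 9.94, 9.86 and 9.37 in ischemic arrays 1 to 5 and at 8.51, 9.42 and 9.01 in normal arrays 1 to 3. Ischemic array 5 lay just below normal array 2, the one overlap. The difference was 0.91 ± 0.29 (SE; limma adjusted p = 0.414), and 0.49 in the 5 arrays with low Xist signal. Ccr1, the receptor for CCL6, CCL9, CCL3 and CCL5, differed by 1.03 ± 0.61 (SE; limma adjusted p = 0.858). It was highest in ischemic array 3, at 8.41, and lowest in normal array 1, at 4.97, and the groups overlapped. Ccr3, the receptor for CCL24, differed by 0.25 ± 0.29 (SE; limma adjusted p = 0.954). It was near the floor of the scale, at 4.11 to 4.55, on all arrays but ischemic array 3, at 5.29. Without that array its difference was 0.062. Ccr8, a receptor for mouse CCL8 that was added after its values were seen, differed by 0.12 ± 0.60 (SE; limma adjusted p = 0.983). Of 9 measured CC receptors 8 had positive differences, 0 passed limma, and the median was 0.26, or 0.76 among receptors that passed a filter on level. Ccr10, the one receptor with a negative difference, was near the floor of the scale on all 8 arrays (4.09 to 4.68), so no difference is read from it.

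Of the CC ligands outside the 10, 8 of 13 listed were measured, 5 had positive differences, 0 passed limma and none had groups apart. Their median was 0.20. By p the first 3 were Ccl22, made by dendritic cells and macrophages, at -0.85 ± 0.51 (SE), Ccl25 at 0.52 ± 0.48 and Ccl11, which lies inside the first cluster, at 0.44 ± 0.43. Ccl11 was at 6.89 in ischemic array 1 and at 4.86 to 5.31 in the other 7 arrays.

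Atypical receptors take up chemokines or present them without the usual signal. Of 4 measured, 3 had positive differences and 0 passed limma, with a median of 0.29 that turned to -0.066 with the most variable probe set of each gene. Ccrl2 was at 9.85, 9.96, 10.54, 10.05 and 9.95 in ischemic arrays 1 to 5 and at 7.97, 9.68 and 9.75 in normal arrays 1 to 3. Every ischemic array was above every normal one, and the difference was 0.93 ± 0.42 (SE; limma adjusted p = 0.720), with 0.35 without normal array 1. Ackr2, a scavenger of inflammatory CC chemokines, differed by 0.49 ± 0.37 (SE), and by -0.42 with its most variable probe set. Ackr1 differed by 0.092 ± 0.28 (SE).

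Of 28 listed inducers and regulators of CC chemokine transcription, 26 were measured, 19 had positive differences and 0 passed limma, with a median of 0.14. By p the first 3 were Csf1, the macrophage growth factor, at -1.29 ± 0.57 (SE) but -0.48 with the mean of its probe sets, Irf1, an interferon-induced transcription factor, at 0.52 ± 0.31 and Il13 at -0.34 ± 0.21. Il13 was low on the scale on all 8 arrays, at 4.36 to 5.17. None of the 26 had groups that did not overlap.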

How the data were processed

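The values deposited by the authors are linear array intensities, 1 per probe set on each of 8 arrays (lowest 0.6). Per the labels' protocols, total RNA of the sorted cells was amplified with NuGEN WT-Ovation Pico. How background, probe summary and scaling were handled is not stated in the labels used here. Groups came from sample titles. Of 45101 probe sets, 64 were controls, 34945 had 1 gene symbol, 932 several and 9160 none listed, and only those with 1 symbol were used. Intensities were taken as log2(value + 16) and quantile normalized. Where a gene had several probe sets, the one of highest mean was kept (18193 genes, of whose symbols 18145 are in the RefSeq table). Groups were compared with limma 3.58.1 in R 4.3.3, adjusted over all genes by Benjamini-Hochberg with a threshold of 0.05, and the fit was tested on simulated data. Summed intensities are normalized values taken back to the linear scale. All 10 members are named. In the other ligand, atypical receptor and regulator lists the 3 genes of lowest p are named, with the receptors of the members. Members and lists were chosen with earlier results of these data known. The number of arrays limits the precision. Figures were drawn with matplotlib 3.10.9. Alternatives were other scalings, pseudocounts, filters, probe set rules, eBayes settings, array weights, blocks for replicate number or Xist signal, the arrays with low Xist signal alone, and leaving out each array. Some items are not reported here.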

Additional observations from a re-analysis of the deposited data

Results flagged for a closer look

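Of 24 named genes, 3 had 1 ischemic array set apart from the other 4 by more than Dixon's 95% critical value of 0.71 of the group's range. A test of this kind marks about 1 in 20 groups by chance. Ccl6 was at 11.68 in ischemic array 3, with a gap of 0.879 of the range. Ccl11 was at 6.89 in ischemic array 1, with a gap of 0.836. Ccrl2 was at 10.54 in ischemic array 3, with a gap of 0.712. Groups of 3 normal arrays were not tested.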

How the results depend on the processing

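No CC chemokine passed the threshold under any of the alternatives run, although for Ccl8 the adjusted p of limma reached 0.0517 with arrays centred on ribosomal protein genes (0.0517 to 0.606 over all alternatives). The count of all genes past the threshold was 154 with that centring, 31 with eBayes trend, 15 among genes at or above the 40th percentile, 5 with array weights, 3 at an adjusted p of 0.1, 2 as deposited or with the mean of all probe sets, and 1 with a pseudocount of 1 or with Xist signal as a block. With 1 array left out it was 0 to 112, the highest without normal array 3. Most of these genes were lower in ischemic arrays. The lower ones were 152 with ribosomal centring, 30 with eBayes trend and 105 without normal array 3. All 15 with the 40th percentile filter and all 5 with array weights were lower. The gene-wide median was 0.04 with quantile normalization, 0.0032 as deposited and -0.14 when the deposited values were centred on ribosomal protein genes. The members whose groups did not overlap were 3 to 6 with 1 array left out (6 without normal array 3, against 6.21% of all genes) and 5 in arrays with low Xist signal. Such members were 2 in 6 settings, given here with the share of all genes. They were Ccl8 and Ccl12 with median centring (1.35%), with ribosomal centring (0.379%) and as deposited (1.33%). The same 2 were apart with the mean of all probe sets (2.02%) or the most variable one (1.73%). With the 60th percentile filter (1.98%) they were Ccl9 and Ccl12, and Ccl8 was not tested. The median of other CC ligands moved from 0.20 to 0.53 with that filter. Ccl4 turned to -0.048 with median centring, -0.20 with ribosomal centring, -0.063 as deposited, -0.013 with array weights and -0.072 with low Xist signal. Ccl5 turned to -0.15 with ribosomal centring, -0.014 as deposited, -0.18 with array weights and -0.027 with Xist as a block. Ackr1 was at -0.030 and Ccr8 at -0.051 with ribosomal centring, Ccr8 at -0.094 with array weights, and Ackr2 at -0.42 with its most variable probe set. With 1 array left out, ranges were -0.25 to 0.81 for Ccl3, -0.13 to 0.38 for Ccl4, -0.78 to 1.01 for Ccl5, -0.18 to 0.43 for Ccl24, -0.061 to 0.18 for Ackr1 and -0.34 to 0.39 for Ccr8. The cause of these turns was not tested. Deviations of same-numbered arrays from their group means had correlations of 0.16, -0.088 and 0.10. These 3 values are too few to decide whether the numbers pair the kidneys, and the labels do not say. With the replicate number as a block 0 genes passed, Ccl5 was at 1.07 and Ccr8 at -0.37. Ischemic arrays 4 and 5 have no same-numbered normal array, so they add nothing to the group difference in that fit. It has few arrays to measure spread from. The 60th percentile filter left out Ccl7, Ccl8 and Ccl24.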
